A study of Rattus norvegicus with 6 samples.

Results

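Gria1, Grin1, Grin2a and Grin2b encode subunits of ionotropic glutamate receptors, the ion channels that open when glutamate binds. They were taken by their Ensembl rat identifiers, ENSRNOG00000045816, ENSRNOG00000011726, ENSRNOG00000033942 and ENSRNOG00000008766 in that order, and all 4 were found among the 26405 genes of the deposited count table. The table lists identifiers only, and the gene table at hand pairs 0 of them with a symbol, so the 4 names were given with the identifiers and could not be checked against these data.

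The measurements are messenger RNA counts from rat neural cells grown in culture, with 2 libraries each of astrocytes, neurons and OPCs. OPC stands for oligodendrocyte precursor cell, the proliferating progenitor of the cells that make myelin. Astrocytes, neurons and OPCs were bought from Life Technologies under different catalogue numbers. Astrocytes and OPCs had 1 passage, after 8 days, and were grown for 6 further days, whereas neurons had 0 passages and 7 days in culture. Product, and for neurons also passage and time in culture, therefore cannot be told apart from cell type. The labels give no strain, sex, age or brain region, and they leave unsaid whether the 2 libraries of a cell type are separate cultures. The p-values below therefore reflect the spread between these libraries, estimated in part over all tested genes, and that spread may be technical. In bulk RNA, fewer cells that express a gene and less RNA per cell cannot be told apart. Total counts ran from 22265917 in OPC replicate 1 to 102861667 in astrocyte replicate 1. Levels are given as CPM, the usual counts scaled to library size, here with TMM factors, on which 3 counts were worth between 0.0328 CPM in neuron replicate 1 and 0.115 CPM in OPC replicate 1. Purity of the cultures was not checked here, because no marker gene could be matched to an identifier.

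Ionotropic glutamate receptors fall into families named after selective agonists. AMPA receptors, of which Gria1 encodes the subunit GluA1, carry most fast excitatory transmission. NMDA receptors need the obligatory subunit GluN1, encoded by Grin1, together with GluN2 or GluN3 subunits, and they pass calcium when glutamate arrives at a depolarised membrane. GluN2A and GluN2B, encoded by Grin2a and Grin2b, set the kinetics and pharmacology of the channel, and GluN2B predominates early in forebrain development while GluN2A rises after birth. OPCs are known to receive glutamatergic synapses in the brain and to carry AMPA and NMDA receptors.

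The 4 genes did not share one pattern over the cell types. Grin2a and Grin2b were high in neurons and near the limit of detection in both glial cultures. Gria1 and Grin1 were well detected in OPCs as well as in neurons. Gria1 was the one member with a clear signal in astrocytes. Against the neuron mean, the OPC mean was 90.8% for Gria1, 26.8% for Grin1, 2.71% for Grin2a and 2.73% for Grin2b, and the astrocyte mean was 23.1%, 0.0827%, 2.81% and 1.40%. These percentages are imprecise. Over the 4 pairings of an OPC with a neuron library they ran from 57.9% to 142% for Gria1, 15.0% to 66.0% for Grin1, 0.682% to 7.35% for Grin2a and 1.77% to 3.85% for Grin2b. For astrocytes the widest range was that of Grin1, from 0.0116% to 0.320%, which rests on 16 and 1 astrocyte counts.

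**Figure D1:**
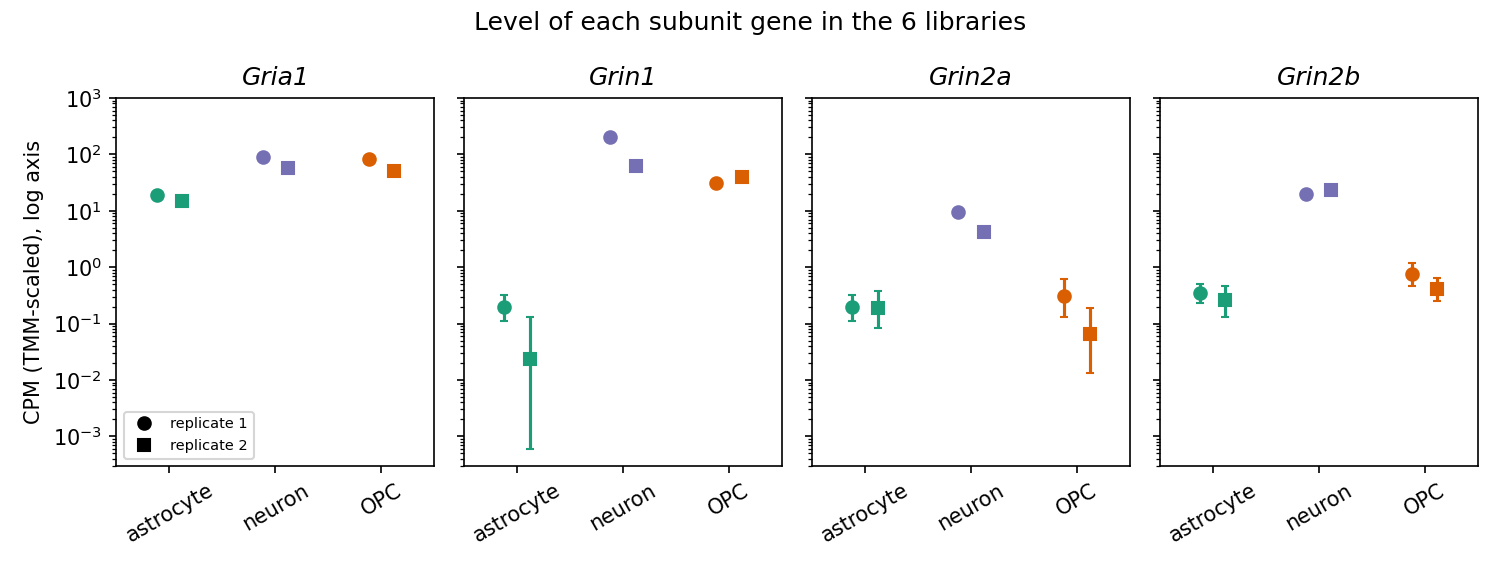
Level of each gene in each library, in CPM on a log axis, with 1 panel per gene, circles for replicate 1, squares for replicate 2 and bars for the 95% Poisson interval of counting error, hidden behind the symbol where short. Grin2a and Grin2b exceed 4 CPM in the neuron libraries and stay under 1 CPM in the other libraries, whereas Gria1 and Grin1 exceed 30 CPM in all neuron and OPC libraries.

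Gria1, the AMPA receptor subunit gene, stood at 88.7 and 57.5 CPM in neuron replicates 1 and 2 (mean 73.1 ± 22.0, SD, n = 2). It stood at 81.5 and 51.4 CPM in OPC replicates 1 and 2 (66.4 ± 21.3) and at 19.2 and 14.7 CPM in astrocyte replicates 1 and 2 (16.9 ± 3.18). The neuron and OPC ranges overlapped, and both astrocyte libraries lay below the other 4 libraries. With 616 counts in the lower of the astrocyte libraries (95% Poisson interval 13.5 to 15.9 CPM), the astrocyte signal was well above counting noise. Intervals of this kind cover counting error only.

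Grin1, the gene of the obligatory NMDA receptor subunit, stood at 205 and 61.2 CPM in neuron replicates 1 and 2 (mean 133 ± 102, SD, n = 2). The level in OPCs was 30.8 and 40.4 CPM (35.6 ± 6.80), and in astrocytes it was 0.196 and 0.0238 CPM (0.110 ± 0.122). The groups did not overlap, and their order was neurons, OPCs, astrocytes. The astrocyte values rest on 16 counts in replicate 1 and 1 count in replicate 2, so the second is below the 3 counts taken here as the floor. Neuron replicates differed 3.36-fold, more than for the other members in that cell type. Of all tested genes, 11.3% differed by more between the neuron replicates.

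Grin1 had the widest range over the cell types. Among the members, only Grin1 had a RefSeq promoter at hand, so those of Gria1, Grin2a and Grin2b could not be shown or compared. The 250 bases ahead of the Grin1 RefSeq transcript start (GRCr8, chr3:28528755-28529004, minus strand) are shown, with CG dinucleotides in capitals.
Grin1 promoter: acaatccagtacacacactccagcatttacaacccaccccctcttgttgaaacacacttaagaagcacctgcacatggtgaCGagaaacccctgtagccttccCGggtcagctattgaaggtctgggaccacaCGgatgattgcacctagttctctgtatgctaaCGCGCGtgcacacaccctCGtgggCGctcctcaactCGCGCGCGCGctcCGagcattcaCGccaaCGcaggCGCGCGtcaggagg
This stretch held 19 CG dinucleotides against a median of 5 over all 33469 RefSeq promoters of that table, and 18.4% of them held at least as many. Over the window that also includes the 50 bases after the start, both strands were searched. It held 1 GC box, GGGCGG, at positions 30 to 35 after the start, a motif present in 33.1% of all promoters. An overlapping Egr site, GCGGGGGCG, lay at positions 26 to 34, and 2.73% of all promoters hold one. The letters of a cAMP response element, TGACGTCA (1.83% of all promoters), and of a TATA box, TATAAA (14.2%), were not in the window. The motifs were chosen after the sequence had been seen, and a match is a description of the letters.

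Grin2a, the gene of GluN2A, stood at 9.53 and 4.19 CPM in neuron replicates 1 and 2 (mean 6.86 ± 3.78, SD, n = 2). In astrocytes it stood at 0.196 and 0.191 CPM, from 16 and 8 counts, and in OPCs at 0.308 and 0.0650 CPM, from 8 and 3 counts. Both neuron libraries were above the other 4, and the astrocyte values lay between the OPC replicates. The 95% Poisson interval was 0.133 to 0.606 CPM in OPC replicate 1, which contained both astrocyte values, and 0.0134 to 0.190 CPM in OPC replicate 2, which ended just below them.

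Grin2b, the gene of GluN2B, stood at 20 and 23.2 CPM in neuron replicates 1 and 2 (mean 21.6 ± 2.25, SD, n = 2). The level was 0.769 and 0.411 CPM in OPCs, from 20 and 19 counts, and 0.343 and 0.262 CPM in astrocytes, from 28 and 11 counts. All OPC values were above all astrocyte values by a narrow gap, but the intervals of OPC replicate 2 (0.248 to 0.642 CPM) and astrocyte replicate 1 (0.228 to 0.496 CPM) overlapped. Neuron replicates differed 1.16-fold, the least of the 4 members in that cell type.

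The first comparison asked how neurons differ from astrocytes. All 4 genes were higher in neurons, by 4.32-fold for Gria1 (95% interval 2.28 to 8.18), 1050-fold for Grin1 (194 to 5630), 35.1-fold for Grin2a (8.61 to 143) and 70.0-fold for Grin2b (29.0 to 169). In both neuron libraries each gene was above both astrocyte libraries. The share of all genes that separate in this way was not counted, so this only describes the members. By edgeR's quasi-likelihood test with Benjamini-Hochberg adjustment over the 18206 genes tested, the log2 fold changes were 2.11 ± 0.39 (SE; adjusted p = 0.00712) for Gria1 and 10.03 ± 1.03 (adjusted p = 0.00088) for Grin1. For Grin2a the log2 fold change was 5.13 ± 0.86 (edgeR adjusted p = 0.00482), and for Grin2b it was 6.13 ± 0.54 (edgeR adjusted p = 0.000556). Of all genes tested, 30.4% passed the threshold of 0.05 in this comparison and 14.5% did so with the higher level in neurons. The median log2 fold change was 5.63 over the 4 members and -0.06 over all genes. All 4 members passed the filter on low counts, but Grin2a did so only through its neuron libraries, so the count of members called is a description of them and no measure of how often such genes differ. The size of the Grin1 difference turned on few astrocyte counts. On the log2 scale the difference was 9.41 when astrocyte replicate 2 was left out, 8.88 without neuron replicate 1, 10.62 without neuron replicate 2 and 12.40 without astrocyte replicate 1. In the last case 1 astrocyte count remained, a pooled ratio of 6280 (95% counting interval 1130 to 248000). The Grin2a log2 fold change was 4.42 without neuron replicate 1.

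**Figure D2:**
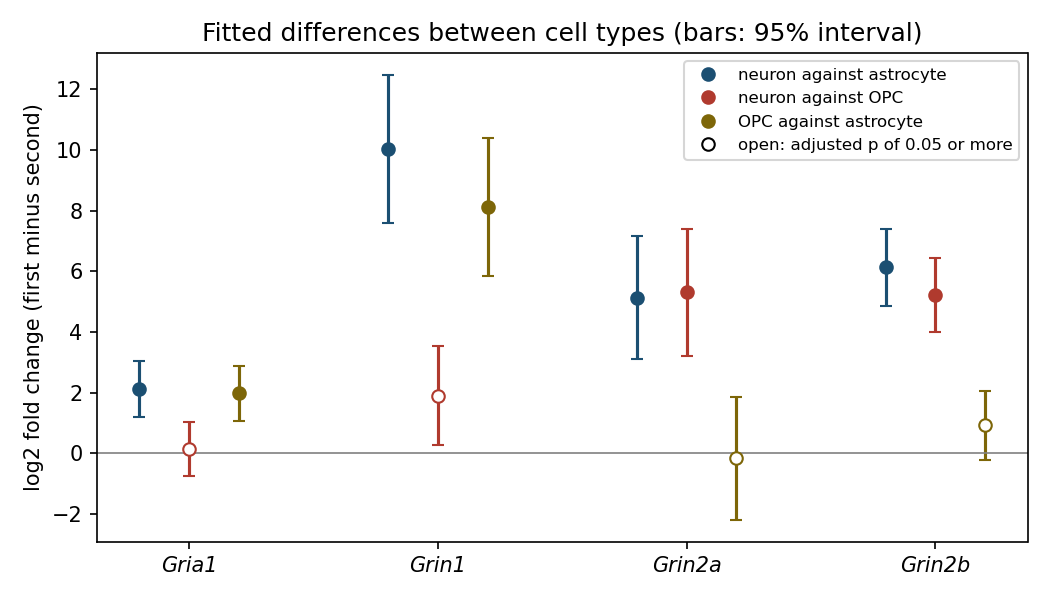
Fitted log2 fold change of each gene in each comparison, first-named cell type minus the second, with bars for the 95% interval and open symbols where the edgeR adjusted p was 0.05 or more. All 4 neuron-astrocyte differences lie above 0, Grin2a and Grin2b differ between neurons and OPCs, and Gria1 and Grin1 differ between OPCs and astrocytes.

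In the second comparison, neurons against OPCs, the test called Grin2a and Grin2b. Whether the differences themselves differed between genes was not tested. Grin2a was 39.3-fold higher in neurons (95% interval 9.15 to 169) and Grin2b 37.1-fold (15.9 to 86.7). Grin2a, with 8 and 3 counts in the OPC libraries, was tested only because its neuron libraries passed the filter. The log2 fold change was 5.30 ± 0.89 (SE; edgeR adjusted p = 0.0149) for Grin2a and 5.21 ± 0.52 (edgeR adjusted p = 0.0036) for Grin2b. Grin1 stood 3.74-fold higher in neurons (95% interval 1.20 to 11.7) and in both libraries of the one above both of the other, but it missed the threshold with a log2 difference of 1.90 ± 0.70 (SE; edgeR adjusted p = 0.125, unadjusted p = 0.0289). Gria1 had a ratio of 1.10 (95% interval 0.596 to 2.03) with overlapping groups (edgeR adjusted p = 0.845), an interval that still allows a level 2.03 times as high in neurons. Of all genes tested, 12.4% were called in this comparison and 7.73% with the higher level in neurons. The median log2 fold change was 3.55 over the 4 members and 0.05 over all genes.

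Some calls between neurons and OPCs changed when 1 library was left out. The log2 fold change stayed at 4.45 or more for Grin2a and at 4.79 or more for Grin2b. In the fits without an OPC library fewer of all genes were called as well, so a lost call there is not particular to these genes. Leaving out neuron replicate 1 brought the Grin1 log2 fold change to 0.78, and leaving out neuron replicate 2 brought it to 2.53 (edgeR adjusted p = 0.0284), past the threshold. DESeq2 also called Grin1 (log2 fold change 1.95, adjusted p = 0.0414), and over the 13 alternatives the adjusted p ran from 0.0284 to 0.411. For Grin2a the log2 fold change was 6.68 without OPC replicate 1 (edgeR adjusted p = 0.056), 4.45 without OPC replicate 2 (adjusted p = 0.0962) and 4.60 without neuron replicate 1 (adjusted p = 0.0184), and over the 13 alternatives the adjusted p reached 0.0962. Without OPC replicate 1 only 3 OPC counts remained for Grin2a, a pooled ratio of 115 (95% counting interval 39.2 to 558). Grin2b stood at 4.79 without OPC replicate 2 (edgeR adjusted p = 0.0505, the highest over its 13 alternatives).

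**Figure D3:**
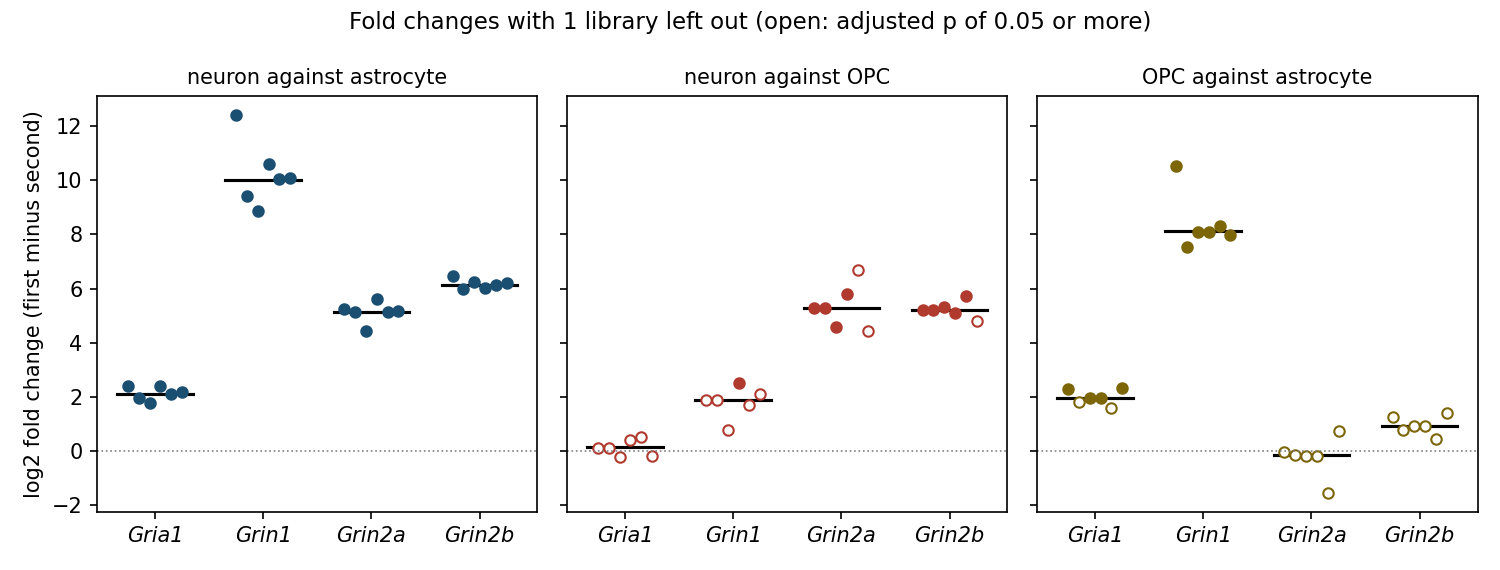
Log2 fold change of each gene with 1 of the 6 libraries left out in turn, as points in the order astrocyte 1 and 2, neuron 1 and 2, OPC 1 and 2; the black line is the value with all libraries, and open points have an adjusted p of 0.05 or more. Neuron-astrocyte points are all filled. For neurons against OPCs, all Gria1 points are open, and of the Grin1 points only that without neuron replicate 2 is filled. In the same panel the open points of Grin2a are those without either OPC library, and that of Grin2b is the one without OPC replicate 2.

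The third comparison set OPCs against astrocytes, both passaged once and kept for the same number of days. Grin1 was 279-fold higher in OPCs (95% interval 57.6 to 1350) and Gria1 3.92-fold (2.08 to 7.41). The log2 fold changes were 8.13 ± 0.96 (SE; edgeR adjusted p = 0.00167) for Grin1 and 1.97 ± 0.39 (edgeR adjusted p = 0.0109) for Gria1. Grin2a, with a mean of 0.186 ± 0.172 CPM in OPC and 0.193 ± 0.00389 CPM in astrocyte libraries (SD, n = 2 each), had a ratio of 0.892 (95% interval 0.220 to 3.63; edgeR adjusted p = 0.921). Grin2b, at 0.590 ± 0.253 and 0.303 ± 0.0573 CPM, had a ratio of 1.89 (0.857 to 4.16; edgeR adjusted p = 0.224). At these depths, with 11 to 39 counts per cell type, a difference of the GluN2 genes between the glial cultures was not detectable. Of all genes tested, 25.5% were called here and 10.6% with the higher level in OPCs. The median log2 fold change was 1.45 over the 4 members and -0.04 over all genes. Gria1 missed the threshold without astrocyte replicate 2 (log2 fold change 1.83, edgeR adjusted p = 0.0653) and without OPC replicate 1 (1.60, adjusted p = 0.0666), the latter its highest over 13 alternatives. Grin1 kept its call in all 13 alternatives (highest adjusted p = 0.0104), with a log2 fold change of 7.52 without astrocyte replicate 2 and 10.52 without astrocyte replicate 1, where 1 astrocyte count gave a pooled ratio of 1550 (95% counting interval 278 to 61300).

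The comparisons share libraries, so the balance between subunits was also read within each library, where scaling between libraries has no part. Counts were not divided by transcript length, so a ratio has meaning only against the same ratio in another library. Grin1 counts were 6.96 and 2.24 times the summed Grin2a and Grin2b counts in neuron replicates 1 and 2. The same ratio was 28.6 and 84.8 in OPC replicates 1 and 2, and 0.364 and 0.0526 in astrocyte replicates 1 and 2. The last ratio rests on 1 Grin1 count and has a 95% counting interval of 0.00127 to 0.331. The OPC ratios rest on 28 and 22 joint Grin2a and Grin2b counts, with 95% counting intervals of 19.6 to 43.3 and 55.9 to 136. Other GluN2 and GluN3 genes were not among the members, so the ratio does not cover all partners of GluN1. The 3 cell types did not overlap, with OPCs highest and astrocytes lowest. On the log2 scale neurons were lower than OPCs by a mean difference of -3.64 (two-sided exact permutation p = 0.333, the smallest that 2 libraries against 2 allow). The ratio of Gria1 to Grin1 counts was 0.432 and 0.941 in neurons, 2.65 and 1.27 in OPCs and 97.8 and 616 in astrocytes, where the second value again rests on 1 Grin1 count (95% counting interval 110 to 24400). These groups did not overlap either, and the neuron-OPC difference had the same exact permutation p of 0.333.

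**Figure D4:**
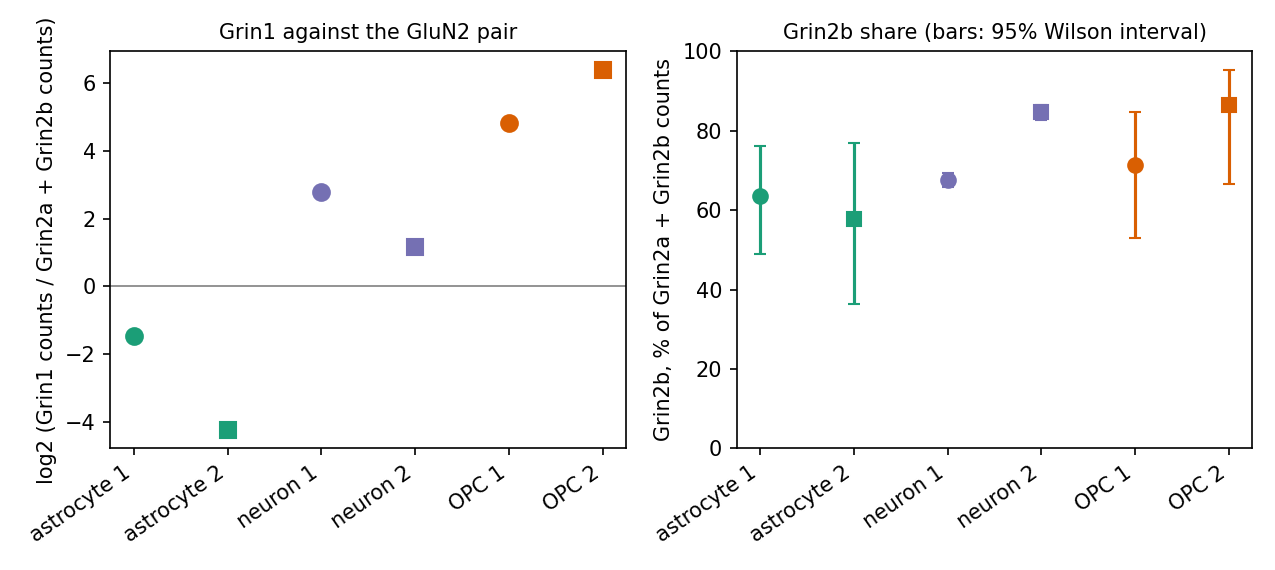
Left, log2 ratio of Grin1 counts to summed Grin2a and Grin2b counts in each library, highest in the OPC libraries and lowest in the astrocyte libraries. Right, Grin2b as a percentage of Grin2a and Grin2b counts with 95% Wilson intervals, where the intervals are wide for the glial libraries and those of the neuron replicates do not overlap.

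Between the GluN2 genes, Grin2b took 67.7% of their joint counts in neuron replicate 1 (95% Wilson interval 65.9 to 69.4) and 84.7% in neuron replicate 2 (82.8 to 86.4). The neuron libraries thus differed from each other beyond counting error. The share was 71.4% in OPC replicate 1 (52.9 to 84.7) and 86.4% in OPC replicate 2 (66.7 to 95.3), from 28 and 22 counts. In astrocytes it was 63.6% (48.9 to 76.2) and 57.9% (36.3 to 76.9), from 44 and 19 counts. The OPC and neuron ranges overlapped. Both astrocyte shares lay below the other 4, but their intervals reached past the share in neuron replicate 1, and no test was run on this share.

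The members differed in how far, and in neurons and OPCs also in which direction, the replicates were apart. In neurons the log2 ratio of replicate 1 to replicate 2, in log2 CPM with a prior count of 2, was 1.75 for Grin1, 1.18 for Grin2a, 0.62 for Gria1 and -0.21 for Grin2b. The SD of that ratio over all tested genes was 1.15, wider than the 0.79 in astrocytes and 0.77 in OPCs. In OPCs the ratio was 0.67 for Gria1, -0.39 for Grin1, 0.85 for Grin2b and 1.78 for Grin2a, the last from 8 and 3 counts. In astrocytes all members were higher in replicate 1, by 0.39 for Gria1, 1.98 for Grin1, 0.03 for Grin2a and 0.35 for Grin2b, the Grin1 value from 16 and 1 counts. Gria1 was higher in replicate 1 in each cell type.

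By the measure of likeness used here, Grin2a and Grin2b were the closest pair of members. Likeness was measured as the root mean square difference of log2 CPM, centred on each gene's mean over the 6 libraries. It was 0.74 between Grin2a and Grin2b, which placed Grin2b 47th among the 18205 other genes by likeness to Grin2a and Grin2a 68th by likeness to Grin2b. Gria1 and Grin1 lay 3.45 apart. Pearson's r, which ignores the size of the differences, gave another order, at 0.97 for Gria1 with Grin1 and 0.96 for Grin2a with Grin2b over the same 6 libraries. By the first measure Grin1 lay 3.62 from Grin2a and 3.13 from Grin2b. Among 12574 genes with at least 10 CPM in some cell type, the closest to any member was ENSRNOG00000004812, at 0.154 from Gria1. It stood at 18.3 and 17.6 CPM in astrocytes, 101 and 62.3 in neurons and 105 and 50.1 in OPCs. ENSRNOG00000005032 came next, at 0.183 from Gria1. These likenesses rest on 6 libraries that all genes share. Those between members also rest on few counts. Grin2a and Grin2b had 3 to 28 counts in each astrocyte and OPC library, and Grin1 had 16 and 1 in astrocytes.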

How the data were processed

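Libraries were made by standard Illumina methods from 250 ng of column-purified total RNA and run on a HiSeq, per the labels' protocols. The authors deposited raw counts per Ensembl rat gene, whole numbers with different totals. Not given in the sources used here are the aligner, counting tool, genome build, annotation and use of strand, so reads of overlapping antisense genes cannot be separated. Columns followed the description in the labels, and 0 were left out. No libraries were identical.

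Genes were kept by filterByExpr (minimum count 10, minimum total 15), leaving 18206. edgeR 4.0.16 in R 4.3.3 fitted all 6 libraries with TMM factors, 1 coefficient per cell type and robust estimation (3 residual degrees of freedom), and cell types were compared by its quasi-likelihood test, with p-values adjusted by Benjamini-Hochberg and a threshold of 0.05. Each standard error is the size of the log2 fold change over the square root of F. The tests of the 4 genes had 7.03 degrees of freedom, since their spread is estimated in part from the other genes. The same steps were also run on simulated counts, with fewer changed genes than the fit of all 6 libraries called. No result above rests on those runs. Alternatives were limma-voom (limma 3.58.1), DESeq2 1.42.0, scaling by RLE or by total counts, no filter, fits of the 4 libraries compared, the replicate number as a block and omission of each library.

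All 4 members were named. The rule for similar genes took the closest by profile with at least 10 CPM in some cell type, at most 2 identifiers. Planned lists of 62 other glutamate receptor and synapse genes and 31 cell type markers were not run, since 0 identifiers matched a symbol. The members and lists were chosen with earlier results of these data known. The promoter came from a RefSeq table of GRCr8.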

Additional observations from a re-analysis of the deposited data

How the results depend on the processing

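Under the alternatives that omitted no single library, 82 of 84 fold changes of the 4 genes kept their direction and their side of the threshold. These include the fits of only the 4 libraries compared. The exceptions were Grin1 for neurons against OPCs, called by DESeq2 (1.95), and Grin2a for OPCs against astrocytes, uncalled throughout, which changed sign with total counts alone (0.30). Scaling by total counts shifted all genes together, with their median log2 difference going from -0.06 to 0.40 for neurons against astrocytes and from -0.04 to 0.39 for OPCs against astrocytes.

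With 1 library left out, where the lone library of a cell type is assumed to vary like the others, 63 of 72 did so. Some of the 72 left out a library of the cell type not compared, where the compared counts stayed the same. All exceptions came from leaving out a library of a compared cell type. For neurons against astrocytes the log2 fold changes ran from 1.76 to 2.42 for Gria1, 8.88 to 12.40 for Grin1, 4.42 to 5.61 for Grin2a and 5.99 to 6.45 for Grin2b, all called. For neurons against OPCs they ran from -0.21 to 0.51 for Gria1, 0.78 to 2.53 for Grin1, 4.45 to 6.68 for Grin2a and 4.79 to 5.71 for Grin2b. The negative Gria1 values were -0.21 without neuron replicate 1 and -0.17 without OPC replicate 2, both uncalled. For OPCs against astrocytes they ran from 1.60 to 2.34 for Gria1, 7.52 to 10.52 for Grin1, -1.55 to 0.74 for Grin2a and 0.43 to 1.40 for Grin2b, and the Grin2a value of 0.74 came without OPC replicate 2. The number of all genes called was 3306 to 5996, against 5532, for neurons and astrocytes. It was 116 to 2759, against 2260, for neurons and OPCs, where DESeq2 called 4031. It was 2182 to 5831, against 4649, for OPCs and astrocytes. The cause was not tested.

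The replicate number as a block changed no call of the 4 genes. For neurons against OPCs it gave log2 fold changes of 0.14 for Gria1, 1.58 for Grin1, 5.32 for Grin2a and 5.26 for Grin2b, and it called 6467, 2445 and 4831 genes for neurons against astrocytes, neurons against OPCs and OPCs against astrocytes. Deviations of libraries with the same number correlated at 0.147, 0.162 and 0.292 in the same order. All 3 are positive, but with 2 numbers per cell type, whose meaning the labels do not give, they do not establish a pairing. The Grin2b share per transcript length was not run, since no transcript lengths of the files' build were used here. Depth limits the glial values of Grin2a and Grin2b and the astrocyte values of Grin1, which rest on 1 to 28 counts per library.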
